A study of Mus musculus with 4 samples.

Results

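The peaks described are the binding sites of ATF4 that lie close to gene ends in cortical neurons after knock-down of Opa1. They are the peaks of the knock-down list whose summit, the position of highest signal, lay within 5 kb of either end of a protein-coding or long non-coding RNA (lncRNA) gene of RefSeq. Of 952 knock-down peaks, 297 met this rule (31.2%) and 655 lay farther away. Distance to a gene end chose them, so their fold, width, sequence and presence in the control list were not part of the choice. Each was looked up among the 93 control peaks by an overlap of at least 1 bp.

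The series profiled primary neurons of the embryonic cortex (E14.5-15) of the outbred mouse stock CD1 by chromatin immunoprecipitation and sequencing (ChIP-seq). The compared groups were an ATF4 ChIP from neurons with a control short hairpin RNA (shControl, genotype WT) and an ATF4 ChIP from neurons with a hairpin against Opa1 (shOpa1, Opa1 knock-down), with 1 library each. Both were cultured with 2 µM cytosine arabinoside against dividing cells, transduced with lentivirus on day 6 and harvested on day 11. The sources used here do not say whether embryos were pooled. With 1 library per condition, no difference between conditions has a replicate check and none was tested. Fold enrichment over the caller's background, tags in the peak and summit are the authors' own values for each peak, and describe that peak within its list. Sequencing depth is not known, and intervals cover counting error only.

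ATF4 is a basic leucine zipper transcription factor whose translation rises when the initiation factor eIF2 alpha is phosphorylated, the central step of the integrated stress response. It binds DNA as a dimer, often with a member of the C/EBP family, at a composite site called the C/EBP-ATF response element. Its known targets include genes that make, import and charge amino acids, and genes that feed back on the response. Opa1 is a GTPase of the inner mitochondrial membrane that is needed for mitochondrial fusion.

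Sequence was available for windows of RefSeq starts (GRCm38.p6, the coordinates of mm10) that run from 250 bases before a transcript start to 50 after it. The core of the C/EBP-ATF element was searched as TGATGNAA on both strands. The sequences below belong to 7 of the 8 peaks of highest fold whose summit lay in such a window and whose element lay before the transcript start. Trib3 (fold 15.3) ranks among them by fold but has its element from 14 to 21 bases past the start and is not printed. Each is printed 5′ to 3′ on the strand of its gene. Capitals mark the element on either strand (TTGCATCA is TGATGCAA read from the other strand). Where the stretch overlaps an annotated gene only 30 bases are given. The positions are chr2:119351013-119351100 for Chac1 and chr8:94386281-94386368 for Herpud1, both on the plus strand. Those of Asns and Got1 are chr6:7693210-7693297 and chr19:43524656-43524743 on the minus strand. Eps15 and Vldlr are at chr4:109342918-109342947 and chr19:27216809-27216838 on the plus strand, and Ank2 is at chr3:127409105-127409134 on the minus strand.
Chac1: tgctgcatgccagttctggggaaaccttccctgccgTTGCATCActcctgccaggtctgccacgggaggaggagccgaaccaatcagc
Herpud1: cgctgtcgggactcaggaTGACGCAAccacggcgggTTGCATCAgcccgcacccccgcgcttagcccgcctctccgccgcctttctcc
Asns: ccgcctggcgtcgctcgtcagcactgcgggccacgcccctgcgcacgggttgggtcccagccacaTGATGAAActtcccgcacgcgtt
Got1: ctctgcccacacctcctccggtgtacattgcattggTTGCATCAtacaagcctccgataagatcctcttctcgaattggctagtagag
Eps15: acttacagagcTGATGCAActcctcctttt
Ank2: agggctcagagTGATGCAActcacaagcgt
Vldlr: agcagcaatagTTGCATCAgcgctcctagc

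The strongest such peaks with no TGATGNAA in their window were those of Bud31, Arl14ep and Psat1, shown for comparison. They lie at chr5:145140288-145140375 (plus strand), chr2:106974536-106974623 and chr19:15925153-15925240 (both minus strand). A further 8 letters, TGACGCAA, are in capitals in the Herpud1 and Bud31 sequences. They were searched for after the sequences had been seen, and their counts stand among the other observations.
Bud31: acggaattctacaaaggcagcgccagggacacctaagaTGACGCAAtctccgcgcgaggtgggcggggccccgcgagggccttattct
Arl14ep: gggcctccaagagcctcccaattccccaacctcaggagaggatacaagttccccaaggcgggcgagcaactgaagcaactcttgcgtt
Psat1: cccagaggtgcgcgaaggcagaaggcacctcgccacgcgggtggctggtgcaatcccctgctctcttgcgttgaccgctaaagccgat

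Promoters with an ATF4 summit carried the C/EBP-ATF element in most cases. A total of 37 peaks had their summit in a promoter window, in 39 windows of 38 genes. TGATGNAA was found in 24 of these 39 windows (61.5%, 95% Clopper-Pearson interval 44.6 to 76.6). Among all 32619 windows it was found in 3.87%. In the 52 windows that a peak near a gene end covered in part, with its summit outside the window, 5 had a match (9.62%, 3.20 to 21.0). The interval of the latter share held the value of all windows, and that of the windows with a summit lay above it. The windows with a summit were richer in G and C (median 59.0% against 53.0%), and the element was rarer in GC-rich windows. Among windows of at least 60% GC, 12 of 19 with a summit had a match, against 1.10% of all. These windows are not independent, since 2 of the peaks lay in a pair of windows each.

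Other letters at the open position N were not equally common. TGATGCAA was found in 17 of the 39 windows (43.6%) against 0.880% of all. TGATGAAA was found in 7, TGATGTAA in 4 and TGATGGAA in 0, while each was in about as many of all windows (1.03%, 1.01% and 1.01%). The cAMP response element TGACGTCA, a site of CREB and ATF dimers, was found in 0 of 39 windows and in 1.80% of all. A limit of 3 counts allows a share of up to 7.69%, and the Clopper-Pearson interval reaches 9.03%. The AP-1 site TGANTCA, bound by Jun and Fos dimers, was found in 1 (2.56%, 0.0649 to 13.5) against 7.85% of all. No window with a summit held both the C/EBP-ATF element and the AP-1 site. A match shows that the letters are present, not that they were bound.

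**Figure D1:**
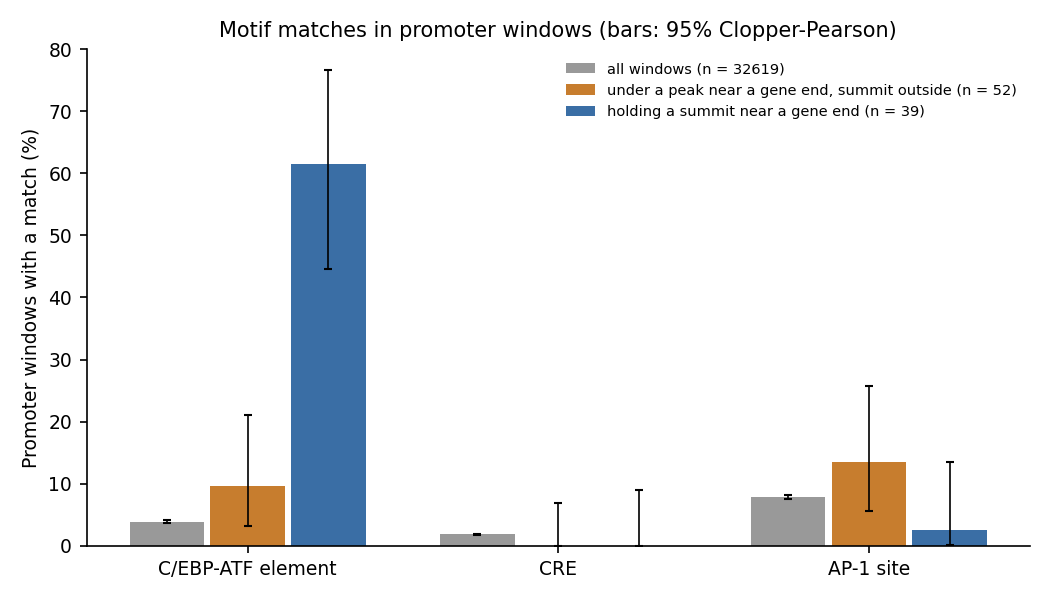
Share of promoter windows (y axis, percent) with a match to 3 motifs, for all windows, windows under a peak near a gene end with the summit outside, and windows holding a summit. Bars carry 95% Clopper-Pearson intervals. The C/EBP-ATF element stands at 61.5% in windows with a summit and 3.87% in all windows, while the other motifs do not rise above all windows there.

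Summit and element had to lie in the same window of 300 bases to be counted, which bounds the distance between them. Over the 23 peaks with the element, the distance from its centre to the summit had a median of 41.5 bp, from 0.5 bp at Got1 (cytosolic aspartate aminotransferase) to 148.5 bp at the divergent pair Cdnf and Hspa14. It was at most 50 bp in 14 peaks. The 23 peaks had a median fold of 11.95 (4.65 to 45.4) and the 14 without it 8.13 (4.62 to 23.4). Of the 20 peaks with a fold of at least 10, 16 had the element, and of the 17 with a lower fold, 7 had it. A control partner was found for 7 of the 23 and 2 of the 14. The fold ranges overlapped, and the difference was not tested.

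**Figure D2:**
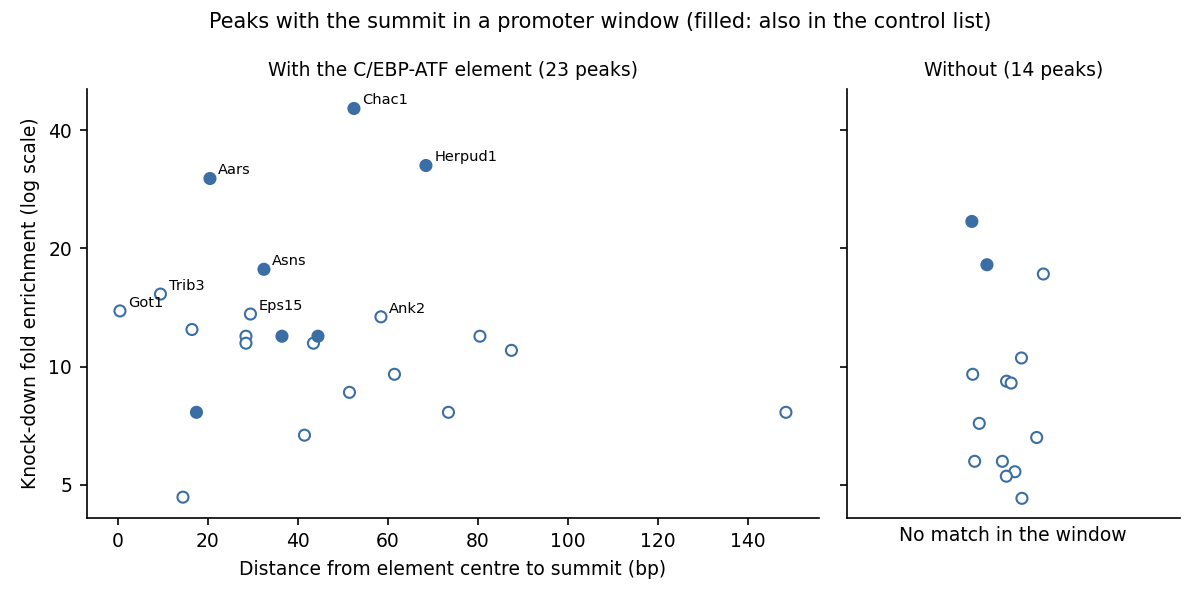
Knock-down fold (y axis, log scale) of the 37 peaks whose summit lay in a promoter window, against the distance from summit to element in bp (left, 23 peaks) or without a match (right, 14 peaks, spread sideways for sight). Filled points also overlapped a control peak. The folds above 25, at Chac1, Herpud1 and Aars, are all on the left.

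Peaks near coding genes lay at gene starts more often than at gene ends. Strand, and so which end is the start, was known for the nearest gene of 223 peaks. Of 158 with a coding gene nearest, 125 were closer to its start (79.1%, 95% Clopper-Pearson interval 71.9 to 85.2) and 33 to its end. Within 1 kb the split was 73 and 6 (92.4% starts), and from 1 to 5 kb it was 52 and 27 (65.8%). Upstream and inside the gene were about equally frequent at coding starts, with 60 of 125 summits upstream (48.0%, 39.0 to 57.1). For lncRNA genes the nearest end was the start in 32 of 65 cases (49.2%, 36.6 to 61.9), so no preference for starts was seen over the whole window. Within 1 kb it was the start in 19 of 32 (59.4%, 40.6 to 76.3), and from 1 to 5 kb in 13 of 33 (39.4%, 22.9 to 57.9). The intervals for coding and lncRNA genes did not overlap over the whole window or within 1 kb. From 1 to 5 kb they overlapped. The difference was not tested.

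**Figure D3:**
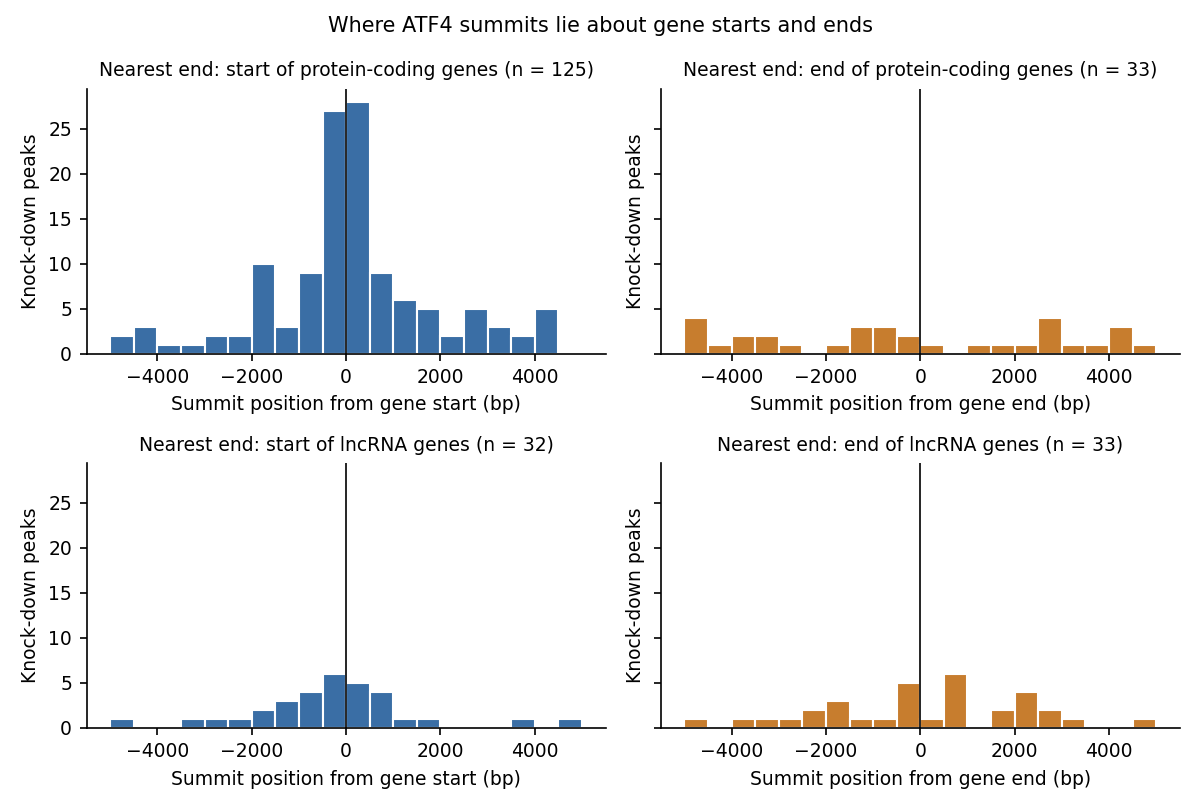
Number of knock-down peaks (y axis) by signed distance in bp of the summit from the nearest gene end, in bins of 500 bp, negative values lying before that end in the direction of transcription. Panels separate starts and ends of protein-coding genes (125 and 33 peaks) and of lncRNA genes (32 and 33). Only the panel of coding starts shows a tall central pile.

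Summits were densest next to gene ends. There were 28 within 100 bp of one, a further 28 to 250 bp, 39 to 500 bp and 50 to 1 kb. The next 4 kilobases held 54, 40, 24 and 34, so the fall did not go on to the edge of the window. The 5 closest lay at Gars (2 bp from an end), Trib3 (8 bp), Aldh18a1 (10 bp), Mrpl54 (10 bp) and Asns (13 bp). At the edge of the window, the last peaks inside were those at Gm32539 (4902 bp, fold 11.5), Cnot6l (4975 bp, 6.69) and Ggta1 (4987 bp, 6.69). The first outside were at Fam120aos (5054 bp, 6.21), Gm40651 (5132 bp, 7.65) and Gm36405 (5137 bp, 7.39). None of these 6 overlapped a control peak.

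The rule measures from the outer ends of a gene and so misses starts inside it. The peak counted for Ddx19b, with folds of 12.5 in control and 30.1 after knock-down, had its summit 129 bp before a RefSeq start of Aars, the cytosolic alanyl-tRNA synthetase. That start lies inside the annotated span of Aars. Peaks counted for lncRNA genes alone likewise lay at inner starts of Eps15, an endocytic adaptor (153 bp before it, fold 13.6), Ank2, the ankyrin of axons (3 bp before it, 13.4), and Arhgef2 (97 bp after it, 12.2, with 6.84 in the control list). Among the 625 peaks farther than 5 kb from any gene end on chromosomes with start windows, 10 lay within 1 kb of an inner start. They included Slc7a11, the cystine transporter subunit, 79 bp before a start (fold 17.6 in the knock-down list and 7.53 in the control list), with the element in its window. Slc3a2, its heavy chain partner, was 873 bp past one (38.2 and 7.53) and Mthfd2, a mitochondrial folate enzyme, 434 bp past one (15.3, knock-down list alone).

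Peaks near gene ends were found again in the control list more often than the rest. A control partner was present for 40 of 297 (13.5%, 95% Clopper-Pearson interval 9.80 to 17.9), against 8.40% of all knock-down peaks and 40 of 655 farther away (6.11%, 4.40 to 8.22). By nearest end, it was present for 25 of 125 at coding starts (20%), 3 of 33 at coding ends, 3 of 32 at lncRNA starts, 1 of 33 at lncRNA ends and 8 of 74 where strand was not known. These differences were not tested. Seen from the other side, 40 of the 44 control peaks near a gene end had a knock-down partner (90.9%, 78.3 to 97.5). So did 40 of the 49 control peaks farther away (81.6%, 68.0 to 91.2), and these intervals overlapped. The 2 summits of a shared site lay a median of 38.5 bp apart, and at most 100 bp apart in 39 of 40.

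Size moved with presence in the control list. The median knock-down fold was 17.7 (95% order-statistic interval 16.25 to 21.99) in the 40 peaks with a control partner and 8.13 (7.65 to 8.60) in the 257 without. Of the 111 peaks with a fold of at least 10, 34 had a partner, and of the 186 below 10, 6 had one. A weaker site may have failed the caller's threshold in the control list, so a missing partner is not a site shown to be unbound. Against the 655 peaks farther away, the median fold was 8.60 (8.13 to 9.18) and 7.95 (7.65 to 8.13), and a fold of at least 20 was reached by 18 of 297 (6.06%, 3.63 to 9.41) and 16 of 655 (2.44%, 1.40 to 3.94). At coding starts the median was 9.56 (8.60 to 10.5). Widths were alike, with medians of 603 bp near gene ends and 586 bp elsewhere.

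At the shared sites the knock-down fold was the higher one in 37 of 40, and the knock-down fold divided by the control fold had a median of 2.22 (95% order-statistic interval 2.02 to 2.48). The 40 shared peaks farther from gene ends had 2.27 (2.05 to 2.38), so closeness to a gene end did not go with another ratio. The folds come from separate calls and their ratio describes the lists, not a measured change in binding. Among the 40 near gene ends the ratio was highest at Ddit3, which encodes the factor CHOP, at 10.04 (30 tags, Poisson interval 20.2 to 42.8) in control and 34.4 (109 tags, 89.5 to 131) after knock-down. The histone gene H4c14 followed, with folds of 9.42 and 31.6, and its summit 127 bp outside the gene. Histone genes exist in near-identical copies, and the sources used here do not say how reads with several matches were treated. The 3 sites whose fold was not higher after knock-down were Pck2, mitochondrial phosphoenolpyruvate carboxykinase (8.15 in control, 7.65 after knock-down), and the zinc finger genes Zbtb18 and Zbtb38 (8.15 and 6.21 at each). Their tags were 16, 17 and 20 in the control list and 24, 30 and 23 in the knock-down list, with intervals that overlapped.

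**Figure D4:**
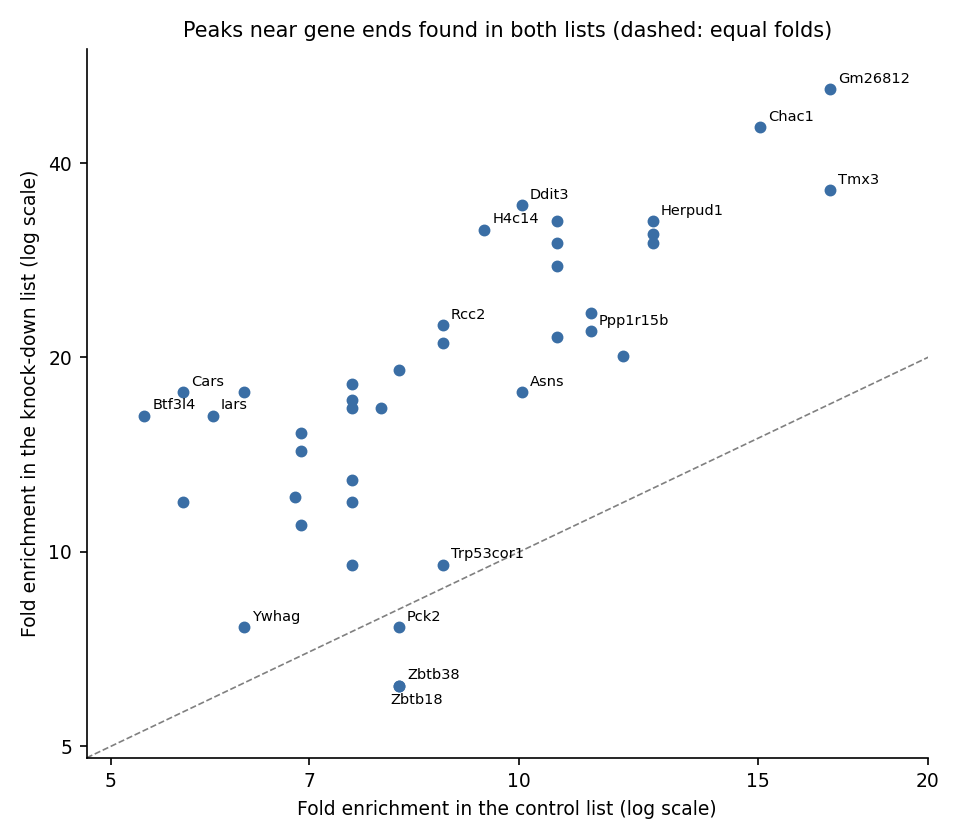
Fold enrichment of the 40 peaks near gene ends found in both lists, control on the x axis and knock-down on the y axis, both log scales. The dashed line marks equal folds. All but Pck2, Zbtb18 and Zbtb38 lie above it.

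The 20 peaks of highest fold had a control partner in 18 cases, the exceptions being those at Arhgap12 (fold 22.95), and Hspa9, the mitochondrial HSP70 (19.5). A coding gene was nearest in 16 of the 20. The strongest with a lncRNA alone lay 997 bp inside Gm26812 on chromosome 8, with folds of 16.9 in control and 52.1 after knock-down, and a second peak (7.47) lay 1522 bp before the same start. Next among those near lncRNA genes alone were the sites at 4930543E12Rik (10.7 and 32.5), 4930563F08Rik (10.7 and 30.1) and Gm41610 (8.15 and 19.1), all in both lists. The summit counted for 4930563F08Rik lay 3513 bp outside that gene and inside another gene, whose ends were farther than 5 kb away. The site near Gm40492 and Gm35021 (16.7) was in the knock-down list alone. Outside the gene lists below, the top 20 also held Rcc2, a regulator of chromosome condensation (8.78 and 22.5), the shared start of Bud31, a splicing factor, and Pdap1 (11.3 and 23.4), and Amotl2, an angiomotin family member (10.7 and 21.5), where the nearer end was the 3′ end.

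The gene groups hold many known targets of ATF4, so their counts are no independent evidence that it binds such genes. Over all 21631 coding genes, 268 had a knock-down summit within 5 kb (1.24%) and 48 a control summit (0.222%). Of the 268, 48 were in one of 15 lists and 220 in none. The 39 genes bound among stress regulators, amino acid synthesis, tRNA synthetases and transporters had a median fold at their strongest peak of 13.9 (95% order-statistic interval 11.5 to 16.7). In the 220 genes of no list it was 8.13 (7.65 to 8.76). Their nearest own end was a start in 33 of 34 with known strand (97.1%) against 118 of 174 (67.8%), and lay within 1 kb in 32 of 39 (82.1%) against 84 of 220 (38.2%). Shared with the control list were 16 of 39 and 25 of 220. A peak between close genes counts for each of them, so the 220 include bystanders.

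Among 19 regulators and effectors of the stress response, 16 had a knock-down peak within 5 kb of an outer end and 8 a control peak there. Among its transcription factors, besides Ddit3, peaks lay 2463 bp before Atf5 (folds of 12.5 in control and 31.1 after knock-down), in Cebpg, a C/EBP partner (223 bp inside its start, 8.78 and 21.0), and in Cebpb (354 bp from its end, 7.53 and 16.7). Atf3, a stress-induced repressor, had a summit 19 bp before its start with the element in its window (11.0, knock-down list alone). The highest fold was at Chac1, which degrades glutathione, with 47 tags (34.5 to 62.5) and a fold of 15.05 in control, and 179 tags (154 to 207) and 45.4 after knock-down. Herpud1, of endoplasmic reticulum-associated degradation, had 12.5 and 32.5 at 177 bp before its start, and a second weak peak 4255 bp inside it (5.05, knock-down list alone).

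Feedback regulators of translation and growth were also bound. Ppp1r15b, a subunit of the phosphatase that removes phosphate from eIF2 alpha, had a summit 50 bp from an end (11.3 and 21.99). Ddit4, an inhibitor of mTORC1, had one 1160 bp before its start (6.90 and 14.3). Eif4ebp1, a repressor of cap-dependent translation (17.2), Trib3, a pseudokinase that restrains AKT and ATF4 signalling (15.3, 8 bp past its start), and Sesn2, another mTORC1 inhibitor (14.3, 3664 bp before its start), were in the knock-down list alone. So were the genes of the secreted stress hormones Gdf15 (10.01, 1402 bp past its start) and Fgf21 (8.76, 975 bp before it), as well as Vldlr, a lipoprotein receptor (12.4), and Stc2, a stanniocalcin (8.13).

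Among 19 genes listed for amino acid synthesis and one-carbon units, 10 had a knock-down peak within 5 kb of an outer end and 4 a control peak there. The list also holds Pck2, the phosphoenolpyruvate carboxykinase named above. Mthfd2, the folate enzyme described above at an inner start, had its peak beyond that window. In both lists were Shmt2, mitochondrial serine hydroxymethyltransferase (11.9 and 20.1, 430 bp past its start), Asns, asparagine synthetase (10.04 and 17.7, 13 bp past its start), Gpt2, mitochondrial alanine aminotransferase (6.90 and 15.3, 343 bp before its start), and Pck2. Knock-down peaks without a control partner lay at Psat1, of serine synthesis (17.2), Got1 (13.9), Pycr1 and Aldh18a1, both of proline synthesis (11.95 and 7.17), Bcat1, a branched-chain aminotransferase (9.56), and Aldh1l2, a mitochondrial folate dehydrogenase. Aldh1l2 had 2 peaks, 857 and 3415 bp inside the gene, each with a fold of 11.5. At Pycr1 and Pck2 the window held the element, 80.5 and 17.5 bp from the summit, and at Aldh18a1 it held no match.

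Of 20 cytosolic tRNA synthetase genes, 9 had a knock-down peak within 5 kb of an outer end and 4 a control peak, while 0 of 17 mitochondrial ones had either. Aars, described above at an inner start (12.5 and 30.1), is not counted among the 9, and its folds were above theirs. Among the 9, Sars had the highest fold of those with a control partner (10.7 and 27.7, 1016 bp past its start). Cars (5.65 and 17.7), Iars (5.94 and 16.2) and Yars (5.65 and 11.95) followed. Eprs (15.3), Mars1 (12.9), Gars (11.95), Tars (8.60) and Nars (8.13) had no control partner. Gars had a second peak of nearly equal fold, 11.5, at 2 bp past its start, with the element 28.5 bp from the summit. Of 13 amino acid transporter genes, 4 had a knock-down peak within 5 kb of an outer end and 0 a control peak there. Slc7a11 and Slc3a2, described above at inner starts, are in this list and had peaks in both lists beyond that window. All 4 summits lay inside the start: Slc1a4 at 28 bp (11.95), Slc38a2 at 579 bp (10.52), Slc7a1 at 373 bp (9.14) and Slc6a9 at 185 bp (6.69). The first 3 carry neutral or cationic amino acids and Slc6a9 carries glycine.

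**Figure D5:**
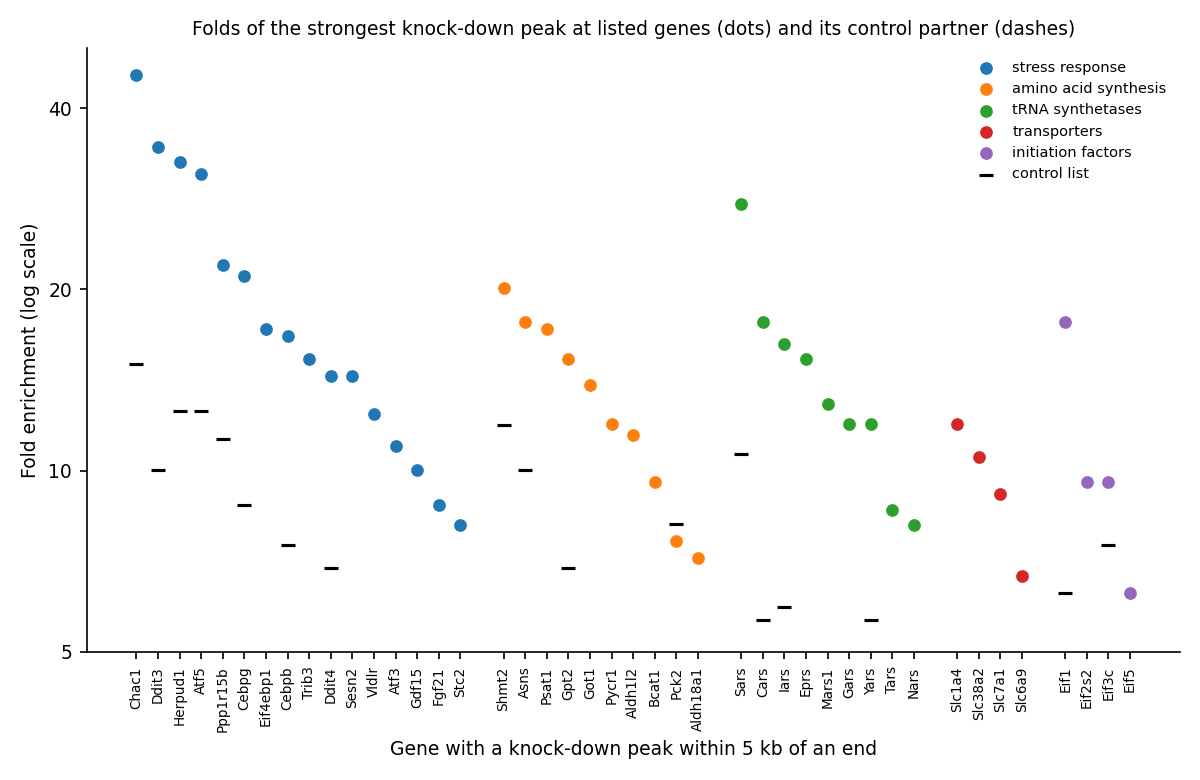
Fold of the strongest knock-down peak (dots, y axis, log scale) at each bound gene of 5 lists, with the control fold of the same site as a dash where a partner was found. Genes without a dash had no control partner. Only at Pck2 is the dash above the dot.

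The other groups held 0 to 4 bound genes each, bound meaning a peak within 5 kb of an outer end. Of 23 translation initiation factors, 4 were bound in the knock-down list (17.4%). Eif1, which guides start codon choice, had folds of 6.27 and 17.7 and Eif3c 7.53 and 9.56 in the control and knock-down lists. Eif2s2, the beta subunit of eIF2 (9.56), and Eif5, its GTPase activator (6.27), were in the knock-down list alone. Hspa9 was the 1 gene of 13 mitochondrial chaperones and proteases, with 3 peaks of fold 19.5, 6.69 and 6.15 within 5 kb. Of 13 endoplasmic reticulum chaperones and folding genes, Tmx3, a thioredoxin-like disulfide isomerase (16.9 and 36.3), and Hspa5, the HSP70 of that compartment (11.5), were bound (15.4%). Per1 (12.9, near its 3′ end) and Cry2 (8.13) were bound among 15 clock genes (13.3%). The share over all coding genes was 1.24%. None of 15 autophagy genes or 9 mitochondrial dynamics genes, Opa1 included, had a peak within 5 kb of an outer end in either list. The same held for 19 synaptic and neuron markers, 9 astrocyte, 8 oligodendrocyte lineage and 7 microglia markers. Binding does not measure expression, so neither the cell type nor the knock-down was checked by these counts.

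Genes on opposite strands started within 1 kb of the same summit at 13 of the peaks. Not all of these pairs are divergent. At Cebpg with Gm45095 the summit lay inside both genes, 223 and 860 bp from their starts. In both lists were Ddit3 with Mbd6, Bud31 with Pdap1, Cebpg with Gm45095, Btf3l4 with Txndc12, an endoplasmic reticulum thioredoxin (5.29 and 16.2), and Yars with S100pbp. The other 8, among them Zfp672 with Sh3bp5l (9.56) and Cdnf, a neurotrophic factor, with Hspa14 (7.65), had no control partner and folds of at most 9.56. Which gene of a pair such a site serves cannot be told from binding. In all, 51 of 297 peaks lay within 5 kb of 2 or more coding genes, and 75 had a lncRNA gene alone in reach.

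More than 1 peak lay near 11 genes, 9 of them coding. Beyond Herpud1, Hspa9, Gars and Aldh1l2 these were Shmt2 with its neighbour Ndufa4l2, which share a pair of sites, and Eprs (15.3 and 4.18, both inside its start). Rabepk (11.5, the peak also counted for Hspa5, and 7.61) and Mtss2 (9.56 and 4.18) had peaks near opposite ends. The lncRNA gene Gm46587 had folds of 10.52 and 5.26. Apart from the Shmt2 sites, no gene with 2 or more peaks had a control partner at its weaker one. Further sites in both lists were Arl14ep (7.53 and 18.2), Ptrh2, a mitochondrial peptidyl-tRNA hydrolase, with Cltc, the clathrin heavy chain (7.53 and 17.2), and Osbpl8, an oxysterol-binding protein (7.91 and 16.7).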

How the data were processed

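The values are the authors' deposited peak lists of the ATF4 ChIP libraries from control and Opa1 knock-down neurons, 1 library each. IgG and input DNA were not analysed here. Per the submitters' processing notes the build was mm10 and the tools were MACS2, deepTools and MultiQC. The aligner, the control library of the calls, thresholds and depth were not given in the sources. Each list gives a score, a fold, a length, a summit and tags per peak. Length equals end minus start plus 1 in all but 20 of the 297 peaks near gene ends, whose length field is shorter and whose scores lie on another scale. Scores were therefore not used. The folds (3.96 to 6.15) and tags of these 20 peaks were used as given, and whether they share the scale of the rest is not known. Their folds are given to more decimals than the others, as is the control fold of Iars (5.9448). The folds of Iars in the control and knock-down lists may therefore differ in scale. Among them are the weaker peaks of Herpud1, Eprs and Mtss2 and the weakest of Hspa9. With the first score form alone the median fold near gene ends was 9.08.

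Genes came from RefSeq GRCm38.p6 (34328 on autosomes and X, of which 26794 had a strand through the promoter table, none on chromosome 18). Fold medians carry order-statistic intervals, shares Clopper-Pearson and tags Poisson intervals at 95%. Gene identity was matched by symbol for all 219 listed genes. Peaks are named by a rule: the 20 highest folds, up to 25 shared peaks, list genes, the window's edges, the closest summits, genes with several peaks and the top lncRNA sites. Other names, such as those at inner starts and at paired starts on opposite strands, were picked with their values in view. The peak set, lists and rule were chosen with earlier results of these data known. No genome was used, so motifs were searched in promoter windows, and not around all summits as planned. The choice of peaks near gene ends, the overlap of at least 1 bp and the search for TGATGNAA were tested on simulated peaks and sequences. Other steps were not tested in this way. Software was matplotlib 3.10.9, scipy 1.17.1, pandas 2.3.3 and numpy 2.4.6 under Python 3.11.15. One promoter sequence that the rule would print is not reported here.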

Additional observations from a re-analysis of the deposited data

How the results depend on the processing

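Windows of 1, 2 and 10 kb, coding genes alone, the first score form, a fold of at least 10, stricter overlaps and other motif settings gave 41 alternative values, of which 32 stayed within 1.5 times the main value (counts) or inside its 95% interval (shares and medians). The number of peaks near gene ends fell to 145 with a 1 kb window and to 111 at a fold of at least 10, by construction. The share of starts among nearest coding ends was 92.4% at 1 kb and 89.0% at 2 kb. The share found again in the control list was 30.6% at a fold of at least 10, and the median fold there was 12.5. The element's share in windows with a summit was 43.6% for TGATGCAA alone and 38.5% in the central 150 bases of the window. With TGACGCAA in its place, an alternative added with the data in view, it was 33.3%. The causes were not tested. The first score form for the motif was also added after the data were seen (60.5%). No paired analysis was possible because a condition is a single library (1 control, 1 knock-down). Depth is unknown, so weak sites in the control list may have been missed.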

Other observations

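A second 8-base sequence was searched after the printed promoters had been read. TGACGCAA was found in 13 of the 39 promoter windows with a summit near a gene end (33.3%, 95% Clopper-Pearson interval 19.1 to 50.2). It was found in 0.487% of all 32619 windows and in 2 of the 52 windows covered by such a peak with its summit outside. The 13 windows belong to Chac1, Herpud1, Bud31 (2 starts), Cdnf with Hspa14, Knl1, Ubr4, Pitpnb, Plekhh3, Taco1, Gm2885 and Ttc9c. In 8 of them TGATGNAA was absent. With either sequence counted, 32 of 39 windows had a match (82.1%), against 4.33% of all windows. Because the sequence was picked from some of the same windows, these counts are a description and no independent evidence.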
